A study of Homo sapiens with 4 samples.

Results

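The V-ATPase subunits, cathepsins, lysosomal membrane and lumen proteins and the MiT/TFE transcription factors were examined in NCI-N87 cells that express ZSCAN18. They were 35 genes chosen by name, and each was found by its symbol among the 60612 genes of the deposited table. NCI-N87 is an established human gastric carcinoma line that carries an amplified ERBB2 gene. RNA was sequenced from 2 libraries of cells given the vector PLVX-IRES-Puro-ZSCAN18 and from 2 libraries of cells given the empty vector, PLVX-IRES-Puro. The sample records give a transfection of 24 h for all 4 libraries. All 4 libraries were taken after 5 days with the vector, and 4 of those days were spent under puromycin, so the selection is common to both groups. ZSCAN18 belongs to the SCAN family of zinc finger proteins, and the series concerns its inhibition of growth in this cancer.

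The V-ATPase is a rotary proton pump. Its V1 sector hydrolyses ATP in the cytosol, and its V0 sector carries protons through the membrane and so acidifies the lumen of the lysosome. Cathepsins are lysosomal proteases that need this acid, and heavily glycosylated proteins such as LAMP1 and LAMP2 line the membrane around them. TFEB, TFE3 and MITF bind a short palindrome, the CLEAR element, in the promoters of many lysosomal genes, and mTORC1 at the lysosome keeps TFEB and TFE3 in the cytosol when nutrients are plentiful.

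Values are FPKM, fragment numbers scaled by gene length and by library total, so levels may be compared between genes. The number of fragments behind a value could not be recovered, so depth is unknown. ZSCAN18 itself had 116 and 112 FPKM in the ZSCAN18 libraries, against 0.108 and 0.144 FPKM in the empty vector libraries. Of 11 epithelial markers 8 had at least 1 FPKM in every library, while CLDN18 was listed at the table's placeholder for no signal in all of them and TFF1 in 3 of the 4. The 10 leukocyte markers summed to between 0.822 and 1.61 FPKM in the ZSCAN18 libraries, against between 0.437 and 6.25 FPKM in the empty vector libraries. The highest of these sums belonged to empty vector library 2, and the part of these transcripts in the lysosomal values below was not tested. The labels do not say that the libraries came from separate cultures, so the spread behind each p-value is that of these libraries and may be technical.

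By their estimates most of the 35 genes differed little between the groups, and ATP6V0C was the one that passed the test. Genes with at least 1 FPKM in at least 2 libraries were tested with limma on log2(FPKM + 1), which left 33 of the 35 among 11822 tested genes. At an adjusted p under 0.05, 0 members rose and 1 fell in limma, which is 3.03% of those tested. Over all tested genes 1.77% passed, with 0.795% higher and 0.973% lower, or 94 and 115 genes (92 and 189 after median-of-ratios scaling). At an unadjusted p under 0.05, 8 members were higher and 4 lower, which is 36.4% beside 26.8% of all tested genes. In 21 of the 33, or 63.6%, the values of the ZSCAN18 and empty vector groups did not overlap, and in 60.2% of all tested genes they did not either. That share is near the background and is not a result about these genes. Of the 21, 12 lay higher and 9 lower with ZSCAN18, where 35.8% of all tested genes lay higher and 24.4% lower. The median log2 fold change of the 33 members was 0.06, against 0.04 over all tested genes. On this scale 32 of the 33 were within 0.5 of no change, beside 10878 of the 11822 tested genes. With log2(FPKM + 0.1) CTSB stood at -0.51 and TFEB at -0.65, beyond that bound. The 32 include ATP6V1C1 and ATP6AP2, whose wide intervals allow no statement of no change. The 33 members were well expressed, with a median level of 16.9 FPKM beside 5.59 FPKM for all tested genes. The transcripts of all 35 summed to 1106.5 and 1068.1 FPKM with ZSCAN18, against 1134.9 and 1092.8 FPKM with the empty vector, and these sums overlapped. The FPKM of the whole table summed to 293060 and 296110 with ZSCAN18, against 312150 and 304030 with the empty vector. Summed FPKM are thus relative levels and not absolute ones.

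**Figure D1:**
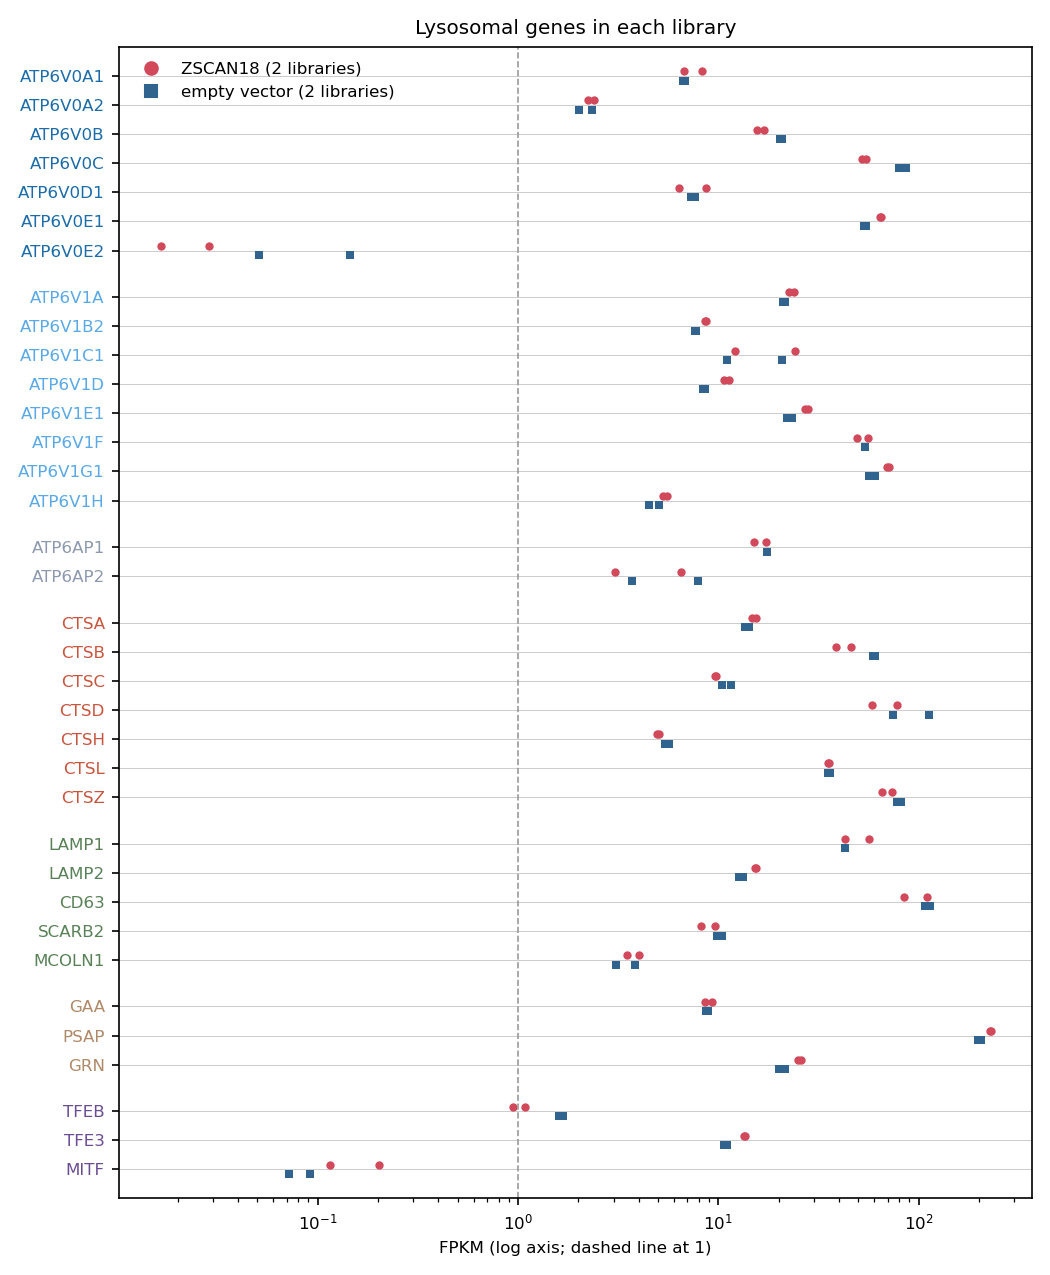
FPKM of the 35 genes in each library on a log axis, in blocks by role, with ZSCAN18 libraries as circles and empty vector libraries as squares just below them. The ZSCAN18 points of ATP6V0C are at 52.5 and 54.5, below its empty vector points at 79.7 and 86.9; most other genes have the symbols of both groups close together, and ATP6V0E2 and MITF lie below 1.

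Within the V0 sector ATP6V0C fell, and ATP6V0B, which shares its ring, was lower in both ZSCAN18 libraries without passing the test. ATP6V0C (ENSG00000185883, chr16:2513952-2520218, plus strand) encodes the c subunit, the proteolipid that makes up most of this ring. It had 52.5 and 54.5 FPKM in the ZSCAN18 libraries, against 79.7 and 86.9 FPKM in the empty vector libraries. The groups did not overlap, and the means fell by 35.8%. The log2 fold change was -0.63 (SE 0.063), with a 95% interval of -0.80 to -0.45 and an adjusted p of 0.0409 in limma. The call rests on all 4 libraries: the adjusted p was 0.215 without ZSCAN18 library 1, 0.188 without ZSCAN18 library 2, 0.164 without empty vector library 1 and 0.156 without empty vector library 2. It was 0.138 with no filter on low genes, 0.0658 without the intensity trend and 0.138 with the library number as a block, so the call was lost in these fits too, with the direction kept. In the authors' deposited table this gene has a log2 fold change of -0.64 and a q-value of 0.00564, and it is not marked as significant there. Of the 35 members, 2 have a q-value under 0.05 in the authors' deposited table and 0 carry its mark of significance, beside 0.624% and 0.845% of all its genes. Those shares are over 60612 genes, of which 30308 are at the placeholder for no signal in every library. The members were mostly well expressed, so these shares are not a like background for them.

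The promoter of ATP6V0C is shown because it is the member that changed. RefSeq on GRCh38.p14 annotates 2 start sites, and the one at position 2513952 equals the start of the gene in the deposited table. The 250 bases before it (chr16:2513702-2513951, plus strand) are 80.0% G and C and hold no CACGTG on either strand, the core of the CLEAR element. They do hold TCATGTGA, a related E-box that MiT/TFE factors are known to bind, which was looked for after this sequence had been read. Capitals mark it.
ATP6V0C: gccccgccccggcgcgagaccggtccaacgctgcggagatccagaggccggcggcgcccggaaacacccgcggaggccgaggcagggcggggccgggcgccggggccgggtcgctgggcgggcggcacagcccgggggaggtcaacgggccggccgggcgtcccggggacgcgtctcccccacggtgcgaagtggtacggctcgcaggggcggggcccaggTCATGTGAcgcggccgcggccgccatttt
The match begins at -29, counting the start base as 0. Searched on both strands of 300-base promoters (250 bases before to 50 after the start), TCATGTGA was in those of 1.24% of 27305 genes and of 3 of the 27 members with a promoter sequence. Those 3 were ATP6V0C, CD63 and GRN, with log2 fold changes of -0.63, -0.20 and 0.28, so they did not share a direction.

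ATP6V0B encodes c″, the other proteolipid of the ring, and had 15.6 and 16.9 FPKM with ZSCAN18, against 20.4 and 20.8 FPKM with the empty vector. Its groups did not overlap, and its log2 fold change of -0.32 (95% interval -0.50 to -0.15) did not pass in limma (adjusted p = 0.0856). ATP6V0E1, a small membrane subunit outside the ring, lay the other way, at 65.0 and 64.1 FPKM with ZSCAN18 against 54.5 and 53.4 FPKM with the empty vector. Its log2 fold change was 0.26 (95% interval 0.13 to 0.38, adjusted p = 0.0771 in limma). The ratio of ATP6V0C to ATP6V0E1 was 0.807 and 0.850 in the ZSCAN18 libraries, against 1.46 and 1.63 in the empty vector libraries. With ZSCAN18 the e subunit was thus the more abundant of the pair in FPKM, and with the empty vector the c subunit was. The pair had the lowest and the highest log2 fold change of the tested V0 genes, so a shifted ratio follows from that choice. The ratio of ATP6V0C to ATP6V0B shifted less, at 3.35 and 3.21 with ZSCAN18 against 3.91 and 4.18 with the empty vector.

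As a share of the summed FPKM of the 7 V0 genes, ATP6V0C made up 35.3% and 35.2% in the ZSCAN18 libraries, against 46.6% and 48.9% in the empty vector libraries. ATP6V0E1 made up 43.7% and 41.4% with ZSCAN18, against 31.8% and 30.05% with the empty vector. The V0 sum was 149 and 155 FPKM with ZSCAN18, against 171 and 178 FPKM with the empty vector. Left without ATP6V0C, the other 6 genes summed to 96.2 and 100.2 FPKM with ZSCAN18, against 91.4 and 90.8 FPKM with the empty vector. The V0 sum was thus lower with ATP6V0C counted and slightly higher without it. The mean sums differed by -13.0% and 7.8%, beside -4.4% for the FPKM of the whole table.

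**Figure D2:**
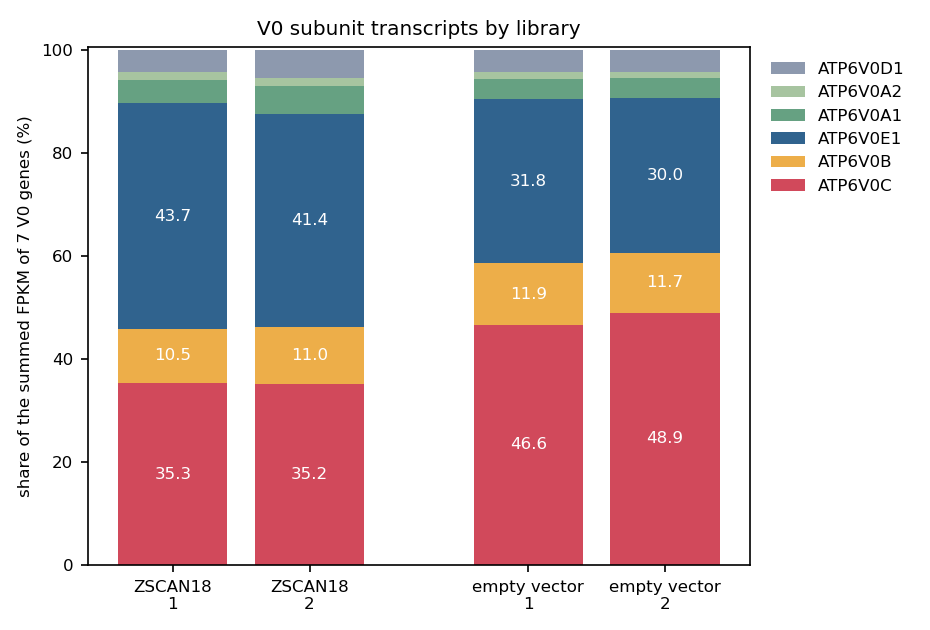
Share of each gene in the summed FPKM of the 7 V0 genes, in percent, as 1 stacked bar per library, with ZSCAN18 libraries on the left; ATP6V0E2 is too low to be seen. ATP6V0C takes 35.3% and 35.2% in the ZSCAN18 bars and 46.6% and 48.9% in the empty vector bars.

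In the other V0 genes tested the groups overlapped. ATP6V0A1 and ATP6V0A2 encode forms of the a subunit, which forms the proton path beside the ring, and had log2 fold changes of 0.13 (95% interval -0.18 to 0.43) and 0.06 (-0.21 to 0.32). ATP6V0D1, the d subunit that couples the ring to the rotor, had 6.35 and 8.65 FPKM with ZSCAN18 and 7.32 and 7.68 FPKM with the empty vector. The empty vector values of ATP6V0D1 lay between the ZSCAN18 values. ATP6V0E2, the second form of e, was not tested. It was listed at 0.0165 and 0.0287 FPKM with ZSCAN18, against 0.145 and 0.0513 FPKM with the empty vector, levels at which a difference cannot be read.

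In the V1 sector 6 of 8 genes were higher in both ZSCAN18 libraries than in both empty vector libraries and 0 were lower, beside 35.8% higher and 24.4% lower over all tested genes. In limma 0 passed and 3 had an unadjusted p under 0.05, all higher, beside 26.8% of all tested genes. The sector's median log2 fold change was 0.17, against 0.04 over all tested genes. ATP6V1D, a subunit of the central rotor, had 11.3 and 10.7 FPKM with ZSCAN18, against 8.42 and 8.56 FPKM with the empty vector. Its log2 fold change of 0.34 (95% interval 0.17 to 0.51, adjusted p = 0.0779 in limma) was the largest in the sector. ATP6V1D overlaps MPP5 on the opposite strand over 41691 bases. MPP5, a polarity protein of epithelial cells, had 10.1 and 9.90 FPKM with ZSCAN18, against 7.57 and 8.22 FPKM with the empty vector. Both genes were thus higher with ZSCAN18, and no source used here says if reads were assigned by strand, so reads of the pair may not be separable.

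ATP6V1E1 and ATP6V1G1 pair up as the peripheral stalks that hold the pump still while it turns. ATP6V1E1 had 27.0 and 28.1 FPKM with ZSCAN18, against 23.3 and 22.0 FPKM with the empty vector. ATP6V1G1 had 69.2 and 71.3 FPKM with ZSCAN18, against 60.3 and 56.2 FPKM with the empty vector. Both stalk genes had a log2 fold change of 0.27, with adjusted p-values of 0.0954 and 0.0939 in limma, which did not pass. The catalytic subunit ATP6V1A, its partner ATP6V1B2 and the regulatory subunit ATP6V1H were also higher in both ZSCAN18 libraries, with log2 fold changes of 0.11, 0.15 and 0.16 and intervals that included 0. ATP6V1A and ATP6V1B2 alternate in the catalytic ring, and their FPKM ratio was 2.76 and 2.59 with ZSCAN18, against 2.81 and 2.73 with the empty vector. ATP6V1F, a further rotor subunit, had 49.5 and 55.7 FPKM with ZSCAN18 and 53.9 and 54.3 FPKM with the empty vector, which overlapped.

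ATP6V1C1, the C subunit that helps V1 dock on V0, varied more within the groups than between them. It had 24.3 and 12.1 FPKM with ZSCAN18, and 20.7 and 11.01 FPKM with the empty vector, with the higher value in library 1 of each group. Its log2 fold change of 0.18 had a 95% interval of -1.08 to 1.43. ATP6AP2, an accessory subunit also known as the prorenin receptor, had 3.04 and 6.52 FPKM with ZSCAN18, and 7.88 and 3.69 FPKM with the empty vector. Here the higher value stood in library 2 of one group and in library 1 of the other, and its interval of -1.50 to 1.04 was as wide. For these genes the data allow neither a direction nor a statement of no change. ATP6AP1, an accessory subunit that aids assembly, had 15.1 and 17.40 FPKM with ZSCAN18, against 17.5 and 17.42 FPKM with the empty vector (log2 fold change -0.10, 95% interval -0.33 to 0.13). Without ZSCAN18 library 1 that value was -0.005, and without ZSCAN18 library 2 it was -0.19.

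**Figure D3:**
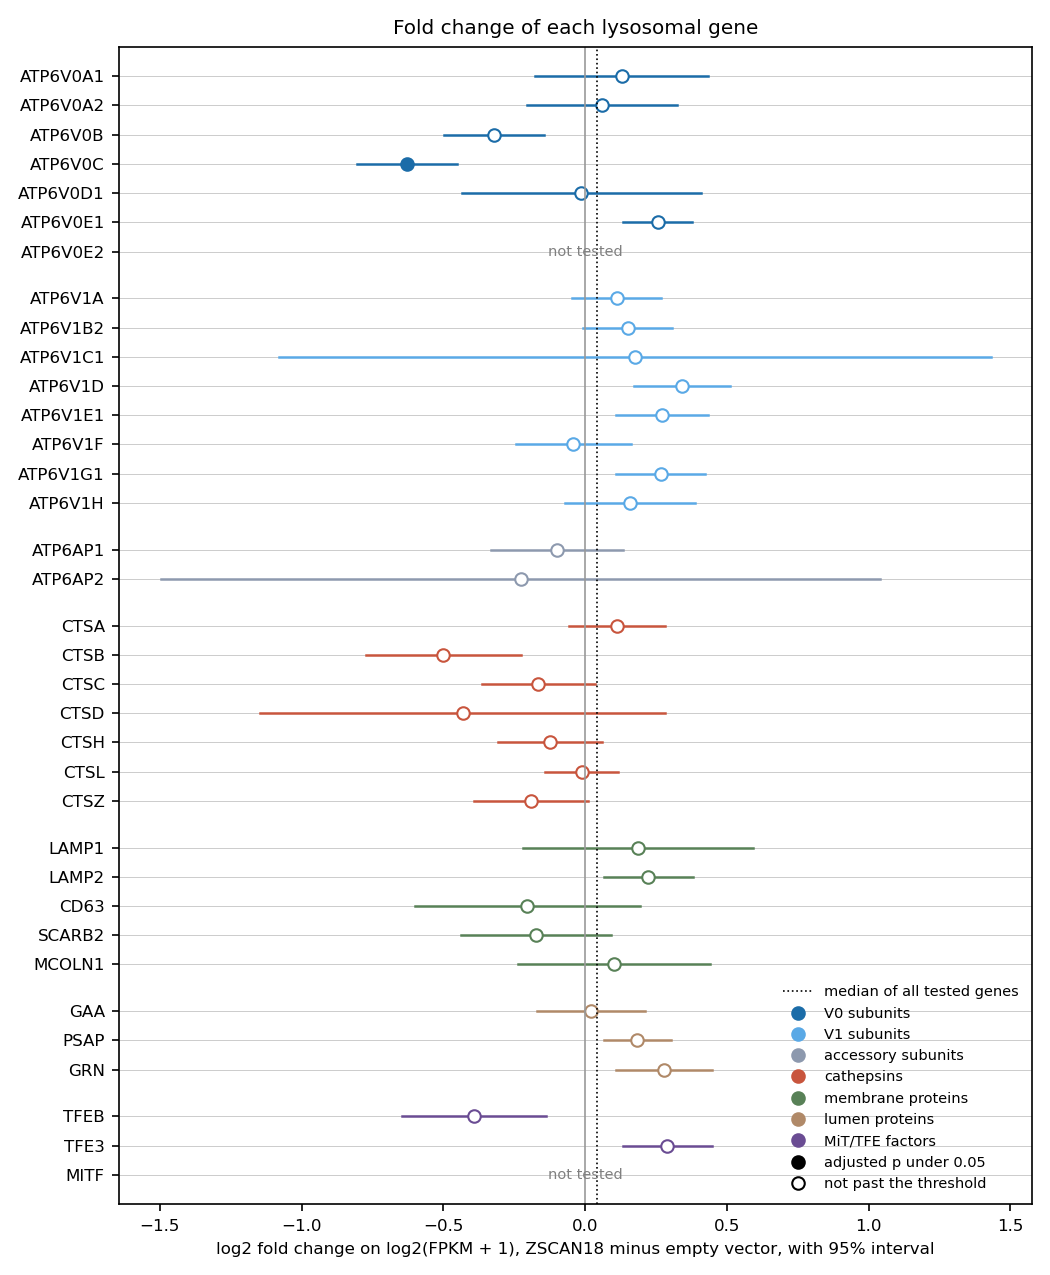
Log2 fold change of each gene on log2(FPKM + 1), ZSCAN18 minus empty vector, with its 95% interval from limma, coloured by role; filled points have an adjusted p under 0.05 and the dotted line is the median of all tested genes. ATP6V0C is the only filled point, at -0.63, and ATP6V1C1 and ATP6AP2 have the widest intervals.

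Several pump subunits have more than 1 gene, and the same paralogue was the main one in all 4 libraries. Among the forms of a, ATP6V0A1 took between 46.0% and 52.5% of the summed FPKM. TCIRG1, the a form best known from osteoclasts, took 29.5% and 31.5% with ZSCAN18, against 33.4% and 37.4% with the empty vector. ATP6V1B2 took 98.4% and 95.2% of the B forms with ZSCAN18, against 91.5% and 90.4% with the empty vector. The rest was ATP6V1B1, the B form of acid-secreting cells of the kidney, at 0.136 and 0.434 FPKM with ZSCAN18 against 0.713 and 0.824 FPKM with the empty vector, and it was too low to be tested. ATP6V1C2 was lower in both ZSCAN18 libraries, at 1.41 and 1.26 FPKM against 1.87 and 2.06 FPKM, and did not pass (log2 fold change -0.34, or -0.52 with a pseudocount of 0.1; adjusted p = 0.129 in limma). ATP6V0D2 and ATP6V1G3 were listed at the placeholder for no signal in all 4 libraries.

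Among the cathepsins 6 of 7 had a negative fold change, 0 rose and 0 fell in limma, and 1 had an unadjusted p under 0.05. Under quantile normalization the negative count was 5, since CTSL changed sign. CTSB, CTSC, CTSH and CTSZ were lower and CTSA higher in both ZSCAN18 libraries. Over all tested genes 5069 of 11822 had a negative fold change, and 26.8% had an unadjusted p under 0.05. Of all tested genes 24.4% lay lower and 35.8% higher with groups that did not overlap. CTSB, an abundant cysteine protease (chromosome 8, 11842524 to 11868713, minus strand), had 38.6 and 46.1 FPKM with ZSCAN18, against 59.5 and 60.6 FPKM with the empty vector. Its log2 fold change was -0.50 (95% interval -0.77 to -0.23), and its adjusted p of 0.0859 in limma missed the threshold. The authors' deposited table gives CTSB a q-value of 0.0445, the other member below 0.05 there. Without ZSCAN18 library 2 its log2 fold change was -0.63, and without ZSCAN18 library 1 it was -0.37.

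CTSD, the main aspartic protease of the lysosome, had 77.9 and 58.6 FPKM with ZSCAN18, and 113 and 74.2 FPKM with the empty vector. The groups overlapped, library 1 was the higher in each, and the interval of its log2 fold change of -0.43 ran from -1.15 to 0.28. Its size depended on single libraries, at -0.23 without ZSCAN18 library 2, -0.13 without empty vector library 1 and -0.73 without empty vector library 2. CTSD overlaps a clone-named gene on the same strand, AC068580, over 11200 bases, and that gene had between 1.11 and 2.54 FPKM. CTSZ, a carboxypeptidase, had 65.99 and 73.4 FPKM with ZSCAN18, against 77.7 and 81.6 FPKM with the empty vector. CTSC, which activates the serine proteases of immune cells, had 9.73 and 9.64 FPKM with ZSCAN18, against 10.4 and 11.6 FPKM with the empty vector. The log2 fold changes of CTSZ and CTSC were -0.19 and -0.17, and neither passed.

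CTSL, a cysteine endopeptidase, was the steadiest of the group. It had 35.5 and 35.3 FPKM with ZSCAN18 and 35.3 and 36.1 FPKM with the empty vector, and the 95% interval of its log2 fold change ran from -0.14 to 0.12. CTSH, an aminopeptidase, had a log2 fold change of -0.12, and CTSA, which protects other lysosomal enzymes from breakdown, one of 0.11. The 7 cathepsin transcripts summed to 248 and 244 FPKM with ZSCAN18, against 315 and 283 FPKM with the empty vector. The mean sums differed by -18.0%, beside -4.4% for the FPKM of the whole table.

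**Figure D4:**
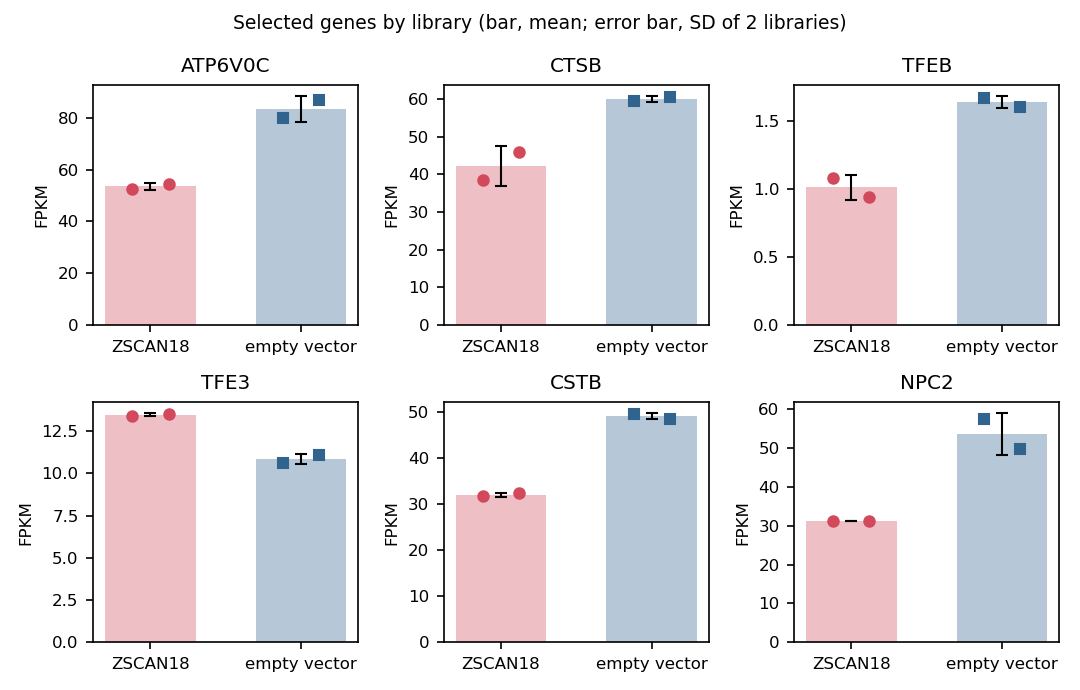
FPKM of 6 genes in each library (points), with the mean as a bar from 0 and the SD of 2 libraries as an error bar, ZSCAN18 on the left of each panel. ATP6V0C, CTSB, TFEB, CSTB and NPC2 are lower in both ZSCAN18 libraries and TFE3 is higher; of the 6, ATP6V0C, CSTB and NPC2 passed the test.

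Of 5 lysosomal membrane proteins 0 passed in limma. LAMP2 was the 1 with an unadjusted p under 0.05, which is 20% beside 26.8% of all tested genes. LAMP2, which takes part in the fusion of autophagosomes with lysosomes, had 15.5 and 15.2 FPKM with ZSCAN18, against 12.7 and 13.3 FPKM with the empty vector (log2 fold change 0.22, adjusted p = 0.120). LAMP1 had 56.5 and 42.69 FPKM with ZSCAN18, against 42.92 and 43.1 FPKM with the empty vector. ZSCAN18 library 1 alone stood apart for LAMP1, and without it the log2 fold change was -0.01 in place of 0.19. CD63, a tetraspanin of late endosomes and exosomes, had 110 and 84.3 FPKM with ZSCAN18, against 114 and 108 FPKM with the empty vector. Its groups overlapped, and its log2 fold change of -0.20 was -0.01 without ZSCAN18 library 2. SCARB2, the receptor that brings glucocerebrosidase to lysosomes, had 9.62 and 8.19 FPKM with ZSCAN18, against 10.4 and 9.85 FPKM with the empty vector (log2 fold change -0.17, but -0.28 without ZSCAN18 library 1 and -0.07 without ZSCAN18 library 2). MCOLN1, the calcium channel of the lysosome, had 3.52 and 4.02 FPKM with ZSCAN18 and 3.08 and 3.83 FPKM with the empty vector, which overlapped.

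The lumen proteins PSAP and GRN were higher in both ZSCAN18 libraries but did not pass. PSAP, the precursor of the saposins that help degrade sphingolipids, was the most abundant of the 35 transcripts, at 229 and 228 FPKM with ZSCAN18 against 197 and 204 FPKM with the empty vector. GRN, which encodes progranulin, had 26.0 and 25.1 FPKM with ZSCAN18, against 20.2 and 21.6 FPKM with the empty vector. Their log2 fold changes were 0.18 (95% interval 0.07 to 0.30) and 0.28 (0.11 to 0.45), with adjusted p-values of 0.103 and 0.0981 in limma. Under quantile normalization PSAP stood at 0.31 with an adjusted p of 0.0508. GAA, the acid glucosidase that degrades glycogen, had 8.57 and 9.33 FPKM with ZSCAN18 and 8.88 and 8.72 FPKM with the empty vector, with an interval of -0.17 to 0.21.

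The MiT/TFE factors lay in opposite directions, and 0 passed in limma, although both tested factors had an unadjusted p under 0.05. Over all tested genes 26.8% had an unadjusted p under 0.05. TFEB had 1.08 and 0.945 FPKM with ZSCAN18, against 1.67 and 1.61 FPKM with the empty vector. TFE3 had 13.4 and 13.5 FPKM with ZSCAN18, against 10.6 and 11.1 FPKM with the empty vector. Neither factor's groups overlapped, and nor did those of 60.2% of all tested genes. The log2 fold changes were -0.39 for TFEB (95% interval -0.65 to -0.14, adjusted p = 0.106) and 0.29 for TFE3 (0.13 to 0.45, adjusted p = 0.0850). With 0.1 in place of 1 as the pseudocount the value for TFEB was -0.65, since the larger pseudocount holds down the change of a gene near 1 FPKM. TFE3 was the more abundant factor throughout, and its FPKM was 12.4 and 14.3 times that of TFEB with ZSCAN18, against 6.36 and 6.89 times with the empty vector. MITF was not tested and was listed at 0.201 and 0.115 FPKM with ZSCAN18, against 0.0918 and 0.0717 FPKM with the empty vector.

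Matches to the CLEAR element in the members' promoters are shown because these factors are known to bind this element in many lysosomal genes. RefSeq promoter sequences (GRCh38.p14) were matched by symbol to 27 of the 35 members. Those without one were ATP6V0E1, ATP6V1A, ATP6V1B2, ATP6V1C1, ATP6V1H, CTSB, LAMP2 and PSAP. The 8-base palindrome TCACGTGA was found in the promoters of 6 members, ATP6V0D1, ATP6V1G1, CTSA, LAMP1, MCOLN1 and GAA, which is 22.2% of the 27, beside 1.18% of 27305 genes and 2.38% of the tested genes that have a promoter sequence. It contains the CACGTG core, which 10 of the 27 members and 8.78% of the genes hold, so these counts overlap. The members were chosen as lysosomal genes, many of which are known to hold this element, so these shares say nothing of ZSCAN18. LAMP1, MCOLN1 and GAA each hold TCACGTGA more than once. Each line below gives 30 bases, 5′ to 3′ on the gene's strand, with the palindrome in capitals.
ATP6V1G1: acgctgtgcggTCACGTGAcaacgggggcg
ATP6V0D1: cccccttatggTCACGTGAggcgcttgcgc
LAMP1, upstream match: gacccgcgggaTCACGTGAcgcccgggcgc
LAMP1, match at the start: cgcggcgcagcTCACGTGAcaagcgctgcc
GAA, upstream match: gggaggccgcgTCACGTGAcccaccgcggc
GAA, downstream match: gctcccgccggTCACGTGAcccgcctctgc
MCOLN1, upstream match: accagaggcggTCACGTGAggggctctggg
MCOLN1, downstream match: gggctaccgggTCACGTGAccgaggcacag
CTSA: ggcgccggagtTCACGTGActcgtacacat
In the order of the lines they lie at chr9:114587699-114587728 (plus strand), chr16:67481199-67481228 (minus), chr13:113297199-113297228 (plus), chr13:113297226-113297255 (plus), chr17:80101493-80101522 (plus), chr17:80101538-80101567 (plus), chr19:7522571-7522600 (plus), chr19:7522598-7522627 (plus) and chr20:45891298-45891327 (plus). The first base of the palindrome lay between -77 and -2, with the start base counted as 0.

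The 6 members with TCACGTGA had log2 fold changes from -0.01 to 0.27 with a median of 0.11, and 0 of them passed in limma. The 19 tested members with a promoter but without the palindrome ranged from -0.63 to 0.34 with a median of -0.12. By the CACGTG core alone the medians were closer. The 9 tested members with the core ranged from -0.43 to 0.27 with a median of 0.02, against -0.07 for the 16 without it. Members that have no promoter sequence are in none of these groups. CTSB among them stood at -0.50. The others, ATP6V0E1, ATP6V1A, ATP6V1B2, ATP6V1C1, ATP6V1H, LAMP2 and PSAP, lay between 0.11 and 0.26. The medians above thus leave out mostly positive values, and they depend on which members had a sequence. Of the 6 with the palindrome, ATP6V1G1 and CTSA were higher in both ZSCAN18 libraries and in the other 4 the groups overlapped. Members without it lay in both directions: ATP6V0C, ATP6V0B, ATP6AP1, CTSC, CTSH, CTSZ, SCARB2 and TFEB were lower in both ZSCAN18 libraries, and ATP6V1D, ATP6V1E1, GRN and TFE3 were higher. A match here is a description of the letters and not a site shown to be bound.

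Beyond the 35 genes, 127 further genes of the lysosome and its control were followed in 8 lists, and 99 of them were tested. Of these 0 rose and 3 fell in limma, which is 3.03%, beside 1.77% of all tested genes, with 0.973% of them lower. At an unadjusted p under 0.05 there were 18 higher and 14 lower, or 32.3%, beside 26.8% of all tested genes. The 3 genes that fell were CSTB, SERPINB3 and NPC2. With 1 library left out none of these calls was kept. The log2 fold changes were then -0.62 to -0.59 for CSTB, -1.63 to -1.43 for SERPINB3 and -0.86 to -0.66 for NPC2. All 3 calls were also lost with no filter on low genes and with the library number as a block. Without the intensity trend those of CSTB and NPC2 were lost and that of SERPINB3 was kept.

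Inhibitors of cathepsins included 2 of these 3. In that list 6 of 10 genes were tested, and 0 rose and 2 fell, beside 0.795% higher and 0.973% lower over all tested genes. Of the list, 5 of the 6 had a negative fold change, beside 5069 of the 11822 tested genes, and the median was -0.42. CSTB, or cystatin B, the cytosolic inhibitor of cathepsins B, H and L, had 31.6 and 32.3 FPKM with ZSCAN18, against 49.5 and 48.5 FPKM with the empty vector. Its log2 fold change was -0.60 (SE 0.047, adjusted p = 0.0357 in limma). CTSB and its inhibitor CSTB were both lower with ZSCAN18, and the ratio of CTSB to CSTB was 1.22 and 1.43 with ZSCAN18 against 1.202 and 1.249 with the empty vector, which overlapped. SERPINB3, a serpin of squamous epithelia that inhibits cysteine cathepsins, had 0.463 and 0.681 FPKM with ZSCAN18, against 3.43 and 3.601 FPKM with the empty vector (log2 fold change -1.53, adjusted p = 0.0351 in limma). With 0.1 as the pseudocount its log2 fold change was -2.45, since it too lies near 1 FPKM. It has a close copy in SERPINB4, so the split of reads between them is uncertain. SERPINB1, an inhibitor of neutrophil proteases, stood at -0.25 and did not pass.

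In the list of other enzymes and lipid carriers 22 genes were tested, 0 rose and 1 fell, and the median was 0.01. NPC2, the soluble carrier that takes cholesterol from the lumen to the membrane protein NPC1, had 31.23 and 31.23 FPKM with ZSCAN18, against 57.3 and 49.8 FPKM with the empty vector. Its log2 fold change was -0.76 (SE 0.083, adjusted p = 0.0477 in limma). Its partner NPC1 lay the other way, at 7.28 and 7.81 FPKM with ZSCAN18 against 5.26 and 5.32 FPKM with the empty vector, and did not pass (log2 fold change 0.44, adjusted p = 0.0677). PLBD2 stood at 0.31 and did not pass.

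In the 6 remaining lists 0 genes passed in limma. Of their 71 tested genes 22, or 31.0%, had an unadjusted p under 0.05, beside 26.8% of all tested genes. Among 4 tested further pump subunits the median was -0.08. Among 9 genes of pump assembly and regulation it was 0.09, with the assembly factor TMEM199 at -0.48, and ROGDI and DMXL1 both at 0.29. The 9 other lysosomal peptidases had a median of 0.24. CTSK, a collagen-degrading cathepsin, had 1.73 and 2.06 FPKM with ZSCAN18, against 1.06 and 0.928 FPKM with the empty vector (log2 fold change 0.54, or 0.87 with 0.1 as the pseudocount; adjusted p = 0.0859 in limma), with CTSO at 0.32 and SCPEP1 at 0.24. Fibroblast and endothelial markers, 9 in number, summed to between 2.09 and 2.76 FPKM with ZSCAN18, against between 0.976 and 1.98 FPKM with the empty vector, and their part in the CTSK value was not tested. Of these markers COL1A1 had 1.46 and 1.09 FPKM with ZSCAN18, against 0.994 and 0.469 FPKM with the empty vector, and COL1A2 and COL3A1 were likewise higher in both ZSCAN18 libraries, at 0.317 to 0.614 FPKM against 0.0772 to 0.493 FPKM. The remaining 6 markers were at or below 0.132 FPKM in every library. The 20 other membrane proteins had a median of 0.05, with OSTM1, a partner of the chloride transporter CLCN7, at 0.47 and LITAF at -0.29. Among 12 genes that sort lysosomal proteins the median was 0.14, with GGA3 at 0.43, CLN8 at 0.34 and IGF2R, a mannose 6-phosphate receptor, at 0.22. The 17 genes that control MiT/TFE factors at the lysosome had a median of 0.15, with RRAGC at 0.32, LAMTOR3 at 0.30 and FNIP1 at 0.22.

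**Figure D5:**
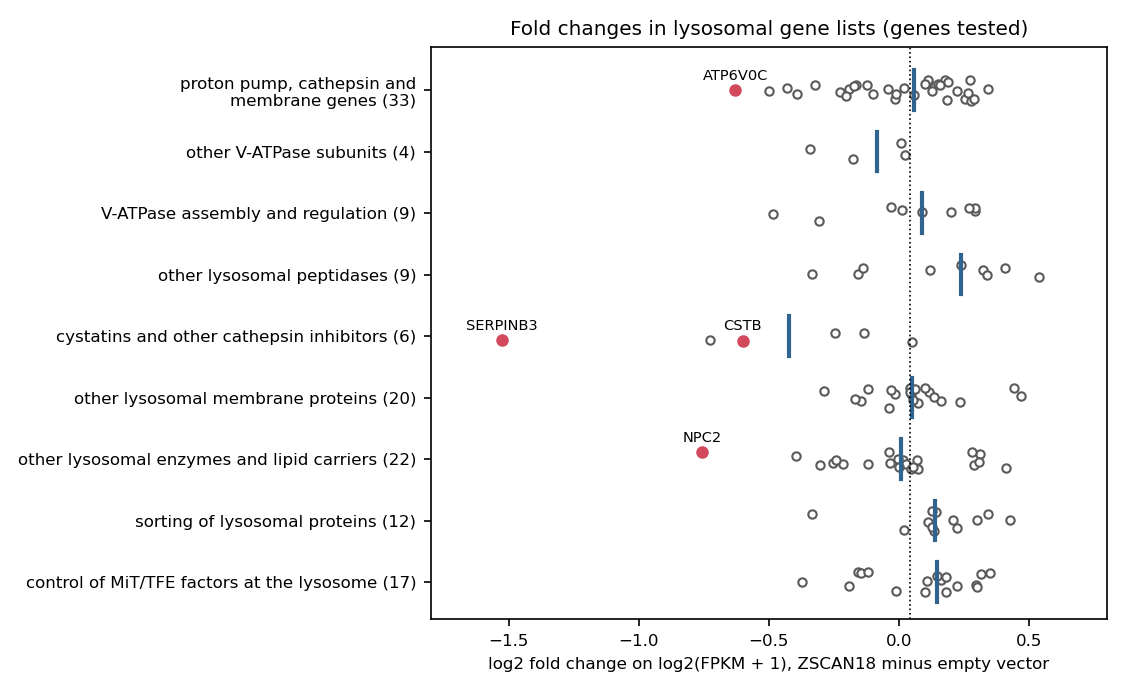
Log2 fold change on log2(FPKM + 1), ZSCAN18 minus empty vector, of each tested gene in the examined set (top) and in 8 further lysosomal lists, with the number tested in brackets, filled points for genes past the threshold, blue bars at list medians and a dotted line at the median of all tested genes. The 4 filled points are ATP6V0C, SERPINB3, CSTB and NPC2, all below 0.

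The annotation column of the deposited table gives the KEGG pathway Lysosome to 123 genes, of which 21 are among the 35. Of these 123, 22 were too low to be tested, and among the rest 1 rose and 2 fell in limma, which is 2.97% beside 1.77% of all tested genes. The median was 0.05. The gene that rose was IDS, a sulfatase that degrades glycosaminoglycans, at 23.8 and 25.2 FPKM with ZSCAN18 against 6.11 and 6.54 FPKM with the empty vector (log2 fold change 1.80, adjusted p = 0.0180 in limma). Its adjusted p was 0.067 with no filter on low genes, 0.121 with the library number as a block and 0.139 to 0.182 with 1 library left out, so the call was lost in these fits, with the direction kept. The genes that fell were ATP6V0C and NPC2.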

How the data were processed

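The data came as a single table that the authors deposited, which per the file headers holds FPKM by library beside the authors' own fold change, log2 fold change, p-value and q-value. DESeq2, edgeR 3.2.5, StringTie 1.3.4d, HISAT2 2.0.4, FastQC 0.10.1 and cutadapt 1.9 appear in the submitters' processing notes, with no roles. Build, annotation and strand setting: not given in the sources used here. Gene positions are given as GRCh38, since 72.7% of 58394 shared identifiers had the same start and end in GENCODE release 29 although only 5 of the 35 members did, and all 35 had a start there within 100 kb. An FPKM of 0.0001 is a placeholder for no signal. The columns of the ZSCAN18 libraries do not carry sample titles and were assigned by elimination, so their numbers 1 and 2 are those of the columns. The low values of single-exon genes did not come out whole (20.3 to 25.4% within 0.02 of a whole multiple of the most common step), so fragments were not recovered.

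Because FPKM are not counts, the test was limma (version 3.58.1, R 4.3.3), run on log2(FPKM + 1) with eBayes and an intensity trend for genes with at least 1 FPKM in at least 2 libraries. P-values are two-sided and adjusted by Benjamini-Hochberg over 11822 genes, with a threshold of 0.05. With 2 libraries a group, the smallest p of an exact permutation test is 0.333. The fit was tested on simulated data. The members and lists were chosen with earlier results of these data known, so their counts are descriptions. All members are accounted for. From the 8 further lists the text names genes past the threshold and up to 3 with the smallest unadjusted p, except 1 that is not reported here. FPKM of members with processed copies (20 copies of 5 members, 19 below 0.1 FPKM in every library) were used as deposited.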

Additional observations from a re-analysis of the deposited data

How the results depend on the processing

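With 2 libraries in each group the calls were sensitive to the fit. Over all genes 209 passed, and 1 member and 3 genes of the further lists were among them. The counts for all genes, members and further lists were 199, 1 and 3 with a pseudocount of 0.1, 281, 1 and 3 with median-of-ratios scaling, and 261, 1 and 3 with quantile normalization. Median-of-ratios scaling split the calls into 92 higher and 189 lower, beside 94 and 115 as deposited. Without a filter on low FPKM the counts were 1, 0 and 0, with 30288 genes tested. In that fit 13 of 35 members and 4241 of the 30288 genes had an unadjusted p under 0.05 in limma. Without an intensity trend the counts were 99, 0 and 1. With the column number as a replicate block, which leaves 1 residual degree of freedom, the counts were 1, 0 and 0. In the block fit 14 of 33 members and 2628 of 11822 genes had an unadjusted p under 0.05 in limma. The numbers are not shown to pair the libraries: the differences between library 1 and library 2 of the groups correlated at 0.034 across all tested genes and at 0.155 across the 33 tested members. With 1 library left out the calls of ATP6V0C, CSTB, SERPINB3 and NPC2 were not kept. The lone library is then assumed to vary like the other group.

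ATP6V0C kept its direction in all 10 alternatives, between -0.69 and -0.57, with adjusted p-values from 0.0373 to 0.215. The median of the members lay between -0.002 and 0.11 over the 4 fits with a library left out. Of 330 alternative values for members, 17 had the other sign, in 10 genes, all of them uncalled. Under median-of-ratios scaling the log2 fold change was -0.023 for GAA and -0.020 for ATP6V1E2. Under quantile normalization it was -0.00033 for ATP6V0A2, 0.028 for CTSL, -0.022 for GAA and -0.050 for ATP6V1E2. With 1 library left out, it ranged from -0.0021 to 0.26 for ATP6V0A1, -0.017 to 0.14 for ATP6V0A2, -0.21 to 0.18 for ATP6V0D1, -0.30 to 0.65 for ATP6V1C1, -0.13 to 0.042 for ATP6V1F, -0.69 to 0.23 for ATP6AP2, -0.029 to 0.0035 for CTSL, -0.0098 to 0.39 for LAMP1, -0.021 to 0.22 for MCOLN1, -0.034 to 0.077 for GAA and -0.053 to 0.070 for ATP6V1E2. Single libraries also moved uncalled values by over 1.5 times without a change of sign, among them ATP6V1H (0.09 to 0.23), CTSC (-0.23 to -0.10), CTSZ (-0.27 to -0.12) and GGA3 (0.26 to 0.59). The cause was not tested.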
